A study of Mus musculus with 4 samples.

Results

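A set of 10 marker genes of smooth muscle cells and pericytes, the cells that wrap arteries, veins and capillaries, were followed in dissected heart chambers of adult mice. They were taken by gene symbol: 6 contractile genes (Cnn1, Cnn2, Tagln, Smtn, Lmod1 and Myh11) and 4 pericyte genes (Rgs5, Notch3, Pdgfrb and Cspg4). All 10 had a probe set among 18783 named genes of the table. The 4 groups were atria of Mef2a-/- knockout mice, atria of Mef2a+/+ wild type mice, ventricles of Mef2a-/- knockout mice and ventricles of Mef2a+/+ wild type mice, all 2 months old. Each group was a pool of RNA from 7 mice, males and females mixed, read on 1 array. The sources used here state neither how the knockout allele was made nor whether atria and ventricles came from the same animals.

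Smooth muscle cells contract through actin filaments and a smooth muscle myosin that is switched on when its light chain is phosphorylated. Many of their contractile genes are driven by serum response factor (SRF) with its coactivator myocardin. SRF binds a short promoter element named the CArG box. Pericytes sit on capillaries, depend on PDGF-B signalling through the PDGF receptor beta, and share Notch3 signalling with arterial smooth muscle. MEF2A, the factor removed in the knockout, belongs to the same MADS-box family of DNA-binding proteins as SRF and binds a related A and T rich element.

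With 1 array per group there was no replicate error and no test was possible, so every difference below describes these pools. Values are log2 intensities as deposited, and differences are log2 differences between 2 arrays. Differences past 1.5-fold between genotypes (0.58 on the log2 scale) or past 2-fold between chambers were counted, if at least 1 of the 2 arrays reached the median of the whole table, 5.71, called the floor. The array medians lay between 5.66 and 5.75. The knockout atria values were the more compressed, with an interquartile range of 2.97 against 3.18 to 3.21 elsewhere. Mef2a itself read 10.41 in knockout and 10.32 in wild type atria, and 10.34 in knockout and 10.28 in wild type ventricles, so its probe set does not check the genotype labels. All 15 cardiomyocyte markers were at or above the floor on every array, and the 9 atrial cardiomyocyte markers were at least 2-fold higher in atria in both genotypes. Of the members, 8 reached the floor on all 4 arrays, Cnn1 on the 2 atrial arrays, and Lmod1 on 0 of 4. Markers of smooth muscle were thus read close to background for part of the list, and a value of bulk tissue cannot tell fewer cells of a type from less RNA per cell.

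The promoters of 7 of the 10 members were matched by symbol in a RefSeq table of build GRCm38.p6. Tagln, Myh11 and Pdgfrb had no promoter there and were not searched. Of these promoters, 3 are printed because they belong to the members on which the results turn: Cnn1, which differed between genotypes in atria, its paralogue Cnn2, which did not pass, and Rgs5, which differed between chambers. Myl9, the regulatory light chain of smooth muscle myosin, is added as another contractile gene that was far higher in atria. Each line gives the 250 bases before the annotated start, 5′ to 3′ on the plus strand, with any CArG box in capitals.
Cnn1: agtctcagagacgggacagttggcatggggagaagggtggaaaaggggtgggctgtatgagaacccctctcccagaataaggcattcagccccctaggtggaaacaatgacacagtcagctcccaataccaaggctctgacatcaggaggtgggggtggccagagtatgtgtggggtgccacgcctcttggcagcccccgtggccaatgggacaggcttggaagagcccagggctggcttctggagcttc
Cnn2: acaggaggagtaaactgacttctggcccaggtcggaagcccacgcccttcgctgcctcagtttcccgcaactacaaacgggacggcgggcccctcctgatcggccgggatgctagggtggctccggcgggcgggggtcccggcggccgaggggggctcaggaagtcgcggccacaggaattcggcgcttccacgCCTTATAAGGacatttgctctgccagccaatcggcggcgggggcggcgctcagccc
Rgs5: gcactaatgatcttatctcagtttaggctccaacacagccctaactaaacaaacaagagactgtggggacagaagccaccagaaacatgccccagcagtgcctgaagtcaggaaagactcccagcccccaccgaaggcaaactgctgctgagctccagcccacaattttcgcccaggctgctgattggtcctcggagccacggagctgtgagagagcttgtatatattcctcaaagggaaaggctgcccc
Myl9: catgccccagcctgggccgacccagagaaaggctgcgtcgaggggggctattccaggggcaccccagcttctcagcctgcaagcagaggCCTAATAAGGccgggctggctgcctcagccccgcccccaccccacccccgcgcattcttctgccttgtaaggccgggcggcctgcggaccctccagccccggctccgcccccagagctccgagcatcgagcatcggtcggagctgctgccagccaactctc

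These stretches are chr9:22099003-22099252 for Cnn1, chr10:79988350-79988599 for Cnn2, chr1:169655251-169655500 for Rgs5 and chr2:156775214-156775463 for Myl9. The search covered both strands of 300 bases, the 250 before and the 50 after the start. A CArG box lay in the Cnn2 window, beginning 56 bases before the start (CCTTATAAGG), and in the Myl9 window, 161 bases before it (CCTAATAAGG). The Cnn1, Smtn and Lmod1 windows held no match in these letters, and neither did those of Rgs5, Notch3 and Cspg4. Over all 32851 promoter windows of the table, 1.63% held a CArG box and 3.19% held a MEF2 site, the element named for the family of the deleted factor. A MEF2 site was found in 0 of the 7 members' windows. Among the 35 windows of the wider contractile list described further on, 3 held a CArG box (Myl6, Myl9 and Vcl) and 1 a MEF2 site (Synpo2). Among the 28 windows of the wider pericyte list, 0 held a CArG box and 2 a MEF2 site (Abcc9 and Pth1r). A match is a run of letters and not a measured binding site.

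Cnn1 was the member that differed most. It encodes calponin 1, an actin-binding protein of differentiated smooth muscle that slows the actomyosin ATPase. Its value was 6.59 in knockout atria and 7.88 in wild type atria, and 5.39 in knockout ventricles and 5.40 in wild type ventricles. Wild type atria stood above the other 3 arrays, knockout atria lay between, and both ventricular arrays lay below the floor. The knockout minus wild type difference was −1.29 in atria, or 2.44-fold lower, and −0.02 in ventricles. Of the 10051 genes above the floor in atria, 26 had a difference as low as that of Cnn1 or lower, itself included. The other members gave no such difference. Of the 9 members above the floor in atria, 1 (Cnn1) was past 1.5-fold lower and 0 higher, against 2.01% and 1.02% of all genes above the floor.

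**Figure D1:**
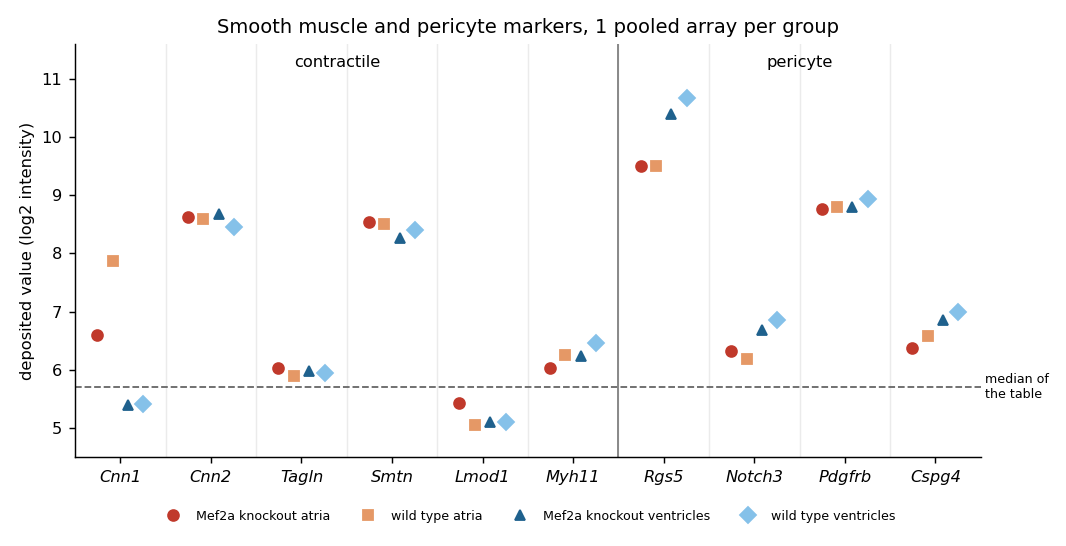
Deposited log2 intensity (vertical axis) of the 10 marker genes on the 4 pooled arrays, 1 point per array, in the order knockout atria, wild type atria, knockout ventricles and wild type ventricles. The dashed line is the floor at 5.71. Cnn1 stands at 7.88 in wild type atria and 6.59 in knockout atria, and Rgs5 is lower on both atrial arrays than on both ventricular arrays.

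Cnn1 was set against the other 5 contractile members in atria. Their knockout minus wild type differences ran from −0.23 for Myh11 to 0.37 for Lmod1, with a median of 0.04. Cnn1 minus that median was −1.32. In ventricles Cnn1, below the floor on both arrays, differed by −0.02 and the median of the other 5 was −0.01. The atrial contrast stayed between −1.32 and −1.29 under the other scalings and with 29 further contractile genes in place of the 5.

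Cnn2 encodes calponin 2, a relative of calponin 1 that is made in many cell types besides smooth muscle. Its value was 8.62 in knockout and 8.59 in wild type atria, and 8.67 in knockout and 8.45 in wild type ventricles. The 4 values lay within 0.23 of each other, and its difference was 0.03 in atria and 0.23 in ventricles. The calponin pair therefore parted in atria, with a difference of −1.29 for Cnn1 beside 0.03 for Cnn2.

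Tagln encodes transgelin (SM22 alpha), a small calponin-related actin-binding protein and an early marker of the smooth muscle lineage. Its values were 6.03 in knockout and 5.89 in wild type atria, and 5.97 in knockout and 5.94 in wild type ventricles. All 4 were just above the floor, with differences of 0.14 in atria and 0.03 in ventricles. Smtn, which encodes the cytoskeletal protein smoothelin, read 8.54 in knockout and 8.50 in wild type atria, and 8.27 in knockout and 8.41 in wild type ventricles. Neither genotype difference of Smtn, 0.04 in atria and −0.14 in ventricles, came near the fold used.

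Myh11, the smooth muscle myosin heavy chain and a marker largely restricted to this cell type, was lower by about the same amount in both chambers. It read 6.03 in knockout and 6.26 in wild type atria, and 6.24 in knockout and 6.47 in wild type ventricles. The differences were −0.23 in atria and −0.23 in ventricles, or 1.17-fold each, short of 1.5-fold. Lmod1, which encodes leiomodin 1, an actin filament nucleator of smooth muscle, read 5.43 in knockout and 5.06 in wild type atria, and 5.10 in knockout and 5.11 in wild type ventricles. Its atrial difference of 0.37 was the highest of the 10 members, but all 4 values were below the floor.

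The pericyte genes differed little by genotype in atria. Rgs5, a regulator of G protein signalling that is abundant in pericytes, read 9.507 in knockout and 9.505 in wild type atria. Its ventricular values were 10.40 in knockout and 10.66 in wild type mice, a difference of −0.26. Notch3, the Notch receptor of mural cells, read 6.33 in knockout and 6.19 in wild type atria, and 6.69 in knockout and 6.85 in wild type ventricles. The genotype differences of Notch3 had opposite signs in the 2 chambers, 0.14 in atria and −0.16 in ventricles, and both were below 1.5-fold.

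Pdgfrb, the receptor for PDGF-B, read 8.75 in knockout and 8.80 in wild type atria, and 8.80 in knockout and 8.93 in wild type ventricles. Cspg4 encodes the NG2 proteoglycan of the pericyte surface and read 6.37 in knockout and 6.58 in wild type atria, and 6.86 in knockout and 6.99 in wild type ventricles. In ventricles all 4 pericyte members were slightly lower in the knockout, from −0.13 to −0.26, while 48.6% of all genes above the floor were negative there. The sign was not particular to pericyte genes, since 16 of 17 fibroblast and 9 of 10 macrophage markers were negative there too. Endothelial markers were split, with 9 positive and 8 negative. Of the 8 members above the floor in ventricles 0 passed 1.5-fold, against 0.515% of all genes higher and 0.69% lower. In atria the pericyte differences ran from −0.20 for Cspg4 to 0.14 for Notch3.

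**Figure D2:**
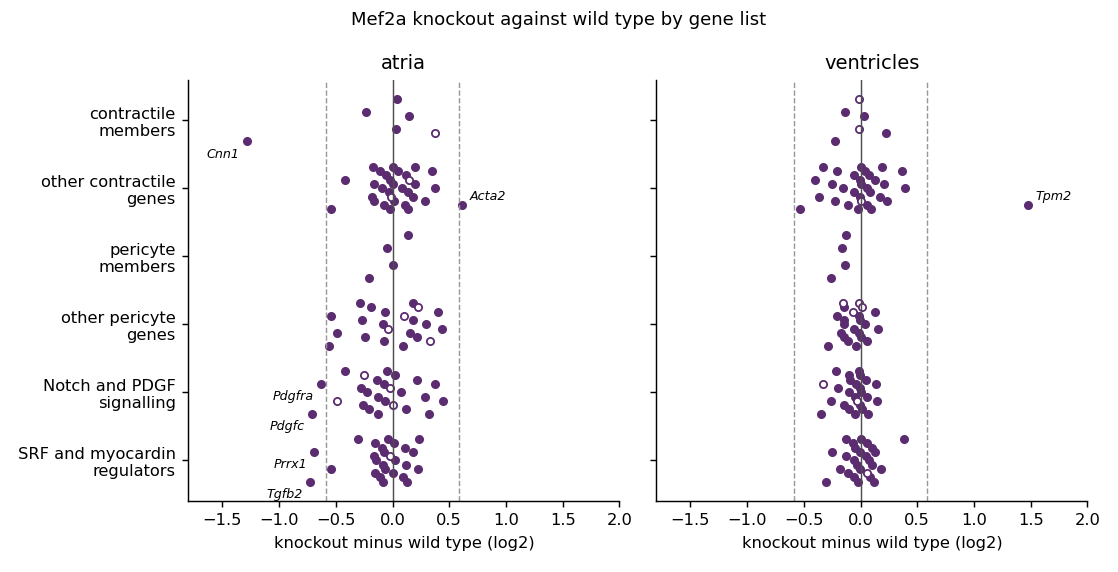
Knockout minus wild type difference (log2, horizontal axis) of each gene of the 6 lists in atria (left) and ventricles (right), 1 point per gene. Filled points reached the floor on at least 1 array of the pair, open points did not, and dashed lines mark 1.5-fold. Cnn1 at −1.29 in atria and Tpm2 at 1.47 in ventricles lie farthest from 0.

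The wider contractile list held 34 genes, of which 31 had a named probe set and 29 were above the floor in atria. In atria 1 was past 1.5-fold higher and 0 were lower (1.02% and 2.01% of all genes), and the list median was 0.00 beside −0.03 for all genes above the floor. The gene that passed was Acta2, the smooth muscle alpha actin that is also made in developing and stressed heart muscle, at 9.89 in knockout and 9.28 in wild type atria. Acta2 and Cnn1, both textbook targets of SRF and myocardin, differed in opposite directions between the atrial pools. Whether SRF or myocardin had a part in either difference was not tested. In ventricles 1 of 30 genes was past 1.5-fold higher and 0 were lower (0.515% and 0.69% of all genes), with a median of 0.00 beside 0.00 for all genes. That gene was Tpm2, the beta tropomyosin of smooth and slow skeletal muscle, at 7.96 in knockout and 6.48 in wild type ventricles.

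The wider pericyte list had 22 of 24 genes measured and 18 above the floor in each chamber, with 0 past 1.5-fold in either. Its median was −0.07 in atria and −0.05 in ventricles. The members of largest size in atria were Pth1r, a parathyroid hormone receptor, at −0.56, and Pde5a, the phosphodiesterase that breaks down cyclic GMP, at −0.54. In ventricles they were Gucy1b1, a subunit of the nitric oxide receptor, at −0.29 and the metalloreductase gene Steap4 at −0.21.

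The genes that signal to these cells were read next. Of 25 Notch and PDGF genes 21 were above the floor in atria, where 2 were lower past 1.5-fold and 0 higher (2.01% and 1.02% of all genes), with a median of −0.08. Pdgfc, a ligand of the PDGF receptors, read 7.23 in knockout and 7.94 in wild type atria. Pdgfra, the receptor of fibroblasts rather than pericytes, read 8.38 in knockout and 9.01 in wild type atria, and it is also on the fibroblast list. Pdgfb, the ligand that recruits pericytes, read 6.73 in knockout and 6.44 in wild type atria, and Pdgfrb differed by −0.05. Jag1, a Notch ligand that acts on mural cells, differed by −0.05, and the Notch target Heyl by −0.07. Other Notch genes differed more, though short of 1.5-fold. The receptor genes Notch4 and Notch1 differed by 0.44 and 0.32, and the target Hes1 by −0.42. The target Hey2 differed by −0.49, with both atrial values below the floor. In ventricles 0 of 23 passed, and the largest sizes were Rbpj, the DNA-binding partner of Notch, at −0.35 and Jag1 at −0.26.

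SRF and the factors that work with it were within 1.5-fold for most genes. Srf read 9.03 in knockout and 8.79 in wild type atria, and Myocd, which encodes myocardin, read 9.47 in knockout and 9.54 in wild type atria. The myocardin-related coactivator genes Mrtfa and Mrtfb differed by 0.01 and −0.16 in atria. Of 25 regulators above the floor, 2 were lower past 1.5-fold in atria and 0 higher, beside the same 2.01% and 1.02% of all genes, with a median of −0.07. These were Tgfb2, a transforming growth factor that promotes the smooth muscle programme, at 6.38 in knockout and 7.11 in wild type atria, and the mesenchymal homeobox gene Prrx1, at 7.11 in knockout and 7.80 in wild type atria. In ventricles 0 of 25 passed, with Fhl1 at 0.38 and Prrx1 at −0.31 of largest size.

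The chamber comparisons asked where these markers are enriched. In knockout mice Cnn1 was 1.20 higher in atria than in ventricles on the log2 scale, or 2.30-fold, and in wild type mice 2.47 higher, or 5.55-fold. Cnn1 was below the floor in both ventricular pools, a range in which RMA compresses differences, so neither chamber difference is an exact size. In the knockout pair 9 members were above the floor. Of these 1, Cnn1, was past 2-fold higher in atria and 0 were lower, against 3.46% and 2.85% of all genes above the floor. In the wild type pair, also with 9 members above the floor, 1 (Cnn1) was higher and 1 (Rgs5) was lower, against 3.89% and 2.21%.

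The 4 pericyte members had lower values in atria than in ventricles. The atria minus ventricles difference of Rgs5 was −0.89 in knockout mice (1.86-fold) and −1.16 in wild type mice (2.23-fold). It was past 2-fold in the wild type pair and short of it in the knockout pair, and the change between the pairs was not tested. Notch3 gave −0.36 in knockout and −0.66 in wild type mice, Cspg4 −0.49 in knockout and −0.41 in wild type mice, and Pdgfrb −0.04 in knockout and −0.13 in wild type mice. All 4 were negative in both genotypes, beside 55.4% of all genes above the floor in the knockout pair and 51.5% in the wild type pair. The difference of Pdgfrb in the knockout pair turned to 0.06 under quantile normalization and 0.07 under lowess centring. The negative sign was not particular to pericyte genes. Cardiomyocyte markers were negative for 15 of 15 in the knockout pair and 14 of 15 in the wild type pair. Endothelial markers were split, with 9 of 17 negative in the knockout pair and 11 of 17 in the wild type pair. Fibroblast markers were mostly positive, 16 of 17 in the knockout pair and 15 of 17 in the wild type pair. The contractile members other than Cnn1 lay closer to 0 than Rgs5, Notch3 and Cspg4, though not than Pdgfrb as a group. Their chamber differences ran from −0.21 (Myh11) to 0.34 (Lmod1) in knockout and from −0.21 (Myh11) to 0.14 (Cnn2) in wild type mice.

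**Figure D3:**
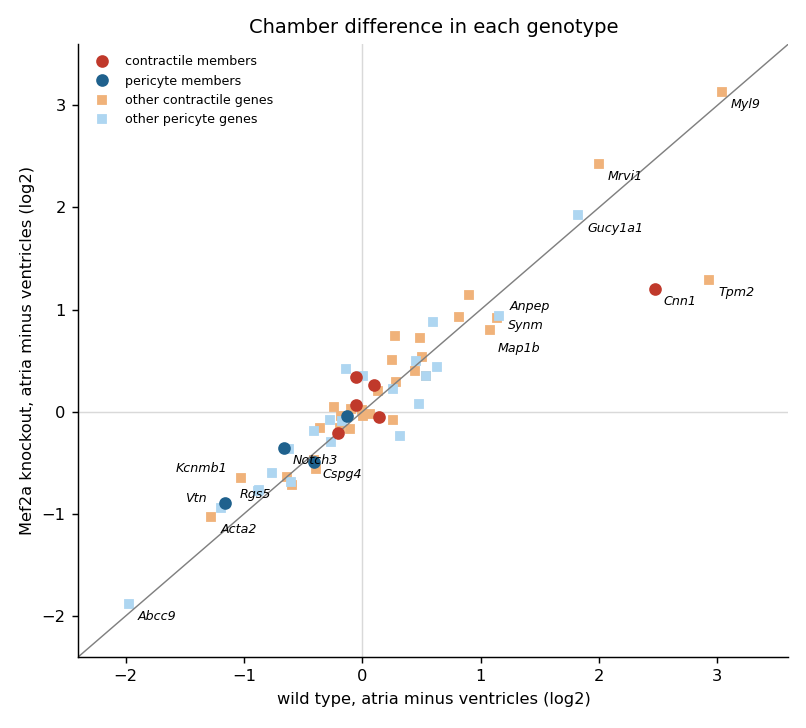
Atria minus ventricles difference (log2) in Mef2a knockout mice (vertical axis) and in wild type mice (horizontal axis), 1 point per gene, with the line of equal differences. Most genes lie near the line, while Cnn1 (1.20 in knockout and 2.47 in wild type mice) and Tpm2 (1.29 in knockout and 2.93 in wild type mice) lie well below it.

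Related genes past 2-fold between wild type chambers, all named here after their values were seen, ran both ways. Of all genes above the floor in that pair, 3.89% were past 2-fold higher in atria and 2.21% lower. Of 30 contractile genes 5 were higher in atria: Myl9 by 3.03, Tpm2 by 2.93, Mrvi1, a substrate of cyclic GMP dependent kinase, by 2.00, the intermediate filament gene Synm by 1.14 and Map1b by 1.08. Acta2 (−1.28) and Kcnmb1 (−1.03), a potassium channel subunit of smooth muscle, were lower. The wider pericyte list was mixed in sign, unlike the 4 members. In the knockout pair 9 of 19 genes above the floor were positive and 10 negative, with a median of −0.08. In the wild type pair 9 of 18 were positive and 9 negative, with a median of 0.04. Over all 22 measured genes 12 were negative and 10 positive in each pair. The median over all 22 was −0.09 in the knockout pair and −0.16 in the wild type pair. In the wild type pair Gucy1a1 (1.83) and Anpep (1.15) were higher in atria, and Abcc9 (−1.97) and Vtn (−1.19) were lower. Abcc9 encodes a subunit of ATP-sensitive potassium channels that heart muscle makes as well. In the knockout pair Myl9 (3.13), Mrvi1 (2.43), Gucy1a1 (1.92), Tpm2 (1.29), Acta2 (−1.03) and Abcc9 (−1.88) were again past 2-fold, and Csrp1 passed there at 1.14, against 0.90 in the wild type pair. Synm (0.92), Map1b (0.80), Anpep (0.94) and Vtn (−0.94) fell short of 2-fold there, and Kcnmb1 (−0.64) was below the floor on both knockout arrays. These changes between the pairs were not tested.

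Cnn1 and Tpm2 both had a smaller chamber difference in the knockout pair, from different sides. Tpm2 read 9.25 in knockout and 9.42 in wild type atria, and 7.96 in knockout and 6.48 in wild type ventricles. Its smaller gap came with a higher value in knockout ventricles, while that of Cnn1 came with a lower value in knockout atria.

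The genes whose 4 values followed Cnn1 most closely were found by Euclidean distance after each gene was centred on its own mean, over 10326 genes that reached the floor on at least 1 array. In order they were Aox3, an aldehyde oxidase (distance 0.18), Plppr5 (0.22), Scd1, the stearoyl-CoA desaturase (0.45), Csrp2 (0.48), Pdgfc (0.52), Gabra3 (0.53), Inmt (0.54) and the prostaglandin F receptor gene Ptgfr (0.57). With only 4 arrays such likeness is a description. Aox3 and Plppr5 reached the floor in wild type atria alone, so their other 3 values are at background. Csrp2 encodes a LIM protein known from smooth muscle and differed by −0.74 between the atrial and −0.33 between the ventricular pools. Ptgfr read 5.77 in knockout and 7.79 in wild type atria, and 4.66 in knockout and 4.93 in wild type ventricles. None of the other members was near: the closest, Smtn, ranked 2763 at a distance of 1.90, and Rgs5 ranked 10099.

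**Figure D4:**
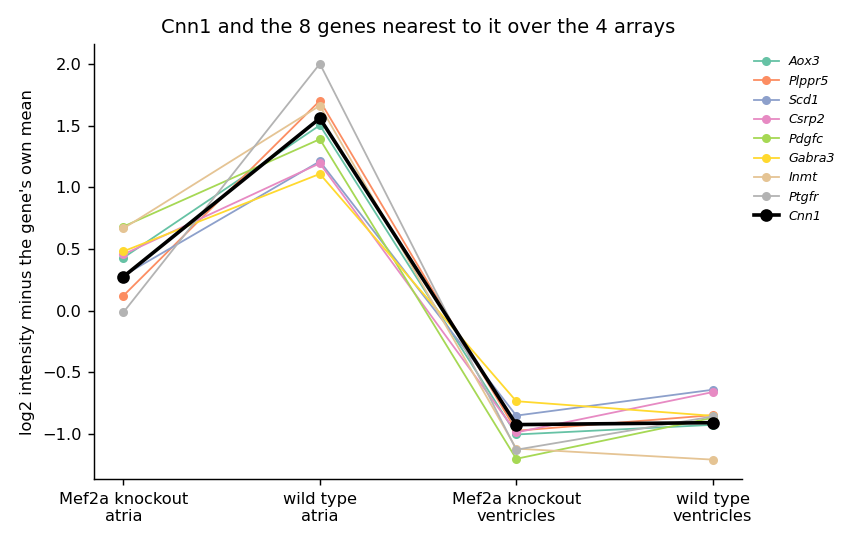
Log2 intensity minus each gene's own mean over the 4 arrays (vertical axis) for Cnn1 (black) and the 8 nearest genes, 1 point per array. The lines join values of 1 gene and imply no order in time. All 9 are highest in wild type atria and lower in knockout atria, an order that follows from picking the 8 by nearness to Cnn1.

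The protein-coding neighbours of Cnn1 on chromosome 9 were read to see whether its surroundings moved with it. The 3 before it (Elavl3, Zfp653 and Ecsit) differed by 0.38, 0.09 and −0.13 in atria, and the 3 after it (Elof1, Acp5 and Pigyl) by −0.06, 0.40 and 0.32. None of these 6 was as much as 1.5-fold apart between the atrial pools, and Elavl3 and Acp5 were below the floor.

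Other cell types were checked in the atrial pools that gave the Cnn1 result. Of 17 fibroblast markers above the floor 14 were negative, beside 56.9% of all genes above the floor. Their median was −0.27, and 3 were past 1.5-fold lower (2.01% of all genes), Lum at −0.84, Pdgfra at −0.63 and Dpt at −0.62. Their mean log2 level was 8.41 in knockout and 8.70 in wild type atria, and 7.89 in knockout and 8.03 in wild type ventricles. Endothelial markers had a median of 0.10 over 17 genes, 13 of them positive and 0 past 1.5-fold. Skeletal muscle markers had a median of −0.59 over 7 genes, all negative, with Myl1 (−3.77), Casq1 (−1.91) and Tnnt3 (−0.66) lowest. All 7 reached the floor in wild type atria but only 2 in knockout atria, so the floor itself favours negative values here. The remaining 7 of 14, including Myh1, Myh2, Myh4 and Actn3, were below the floor on every array. Over all 14 markers, 9 were negative and 5 positive. Their mean level was 5.07 in knockout and 5.65 in wild type atria, and 5.04 in knockout and 5.71 in wild type ventricles. Of 8 adipose markers, Car3 (−2.09), Retn (−1.07) and Scd1 (−0.93) were past 1.5-fold lower in atria, while 5, with Adipoq, Plin1 and Lep among them, were below the floor on every array. Over all 8 markers, 4 were negative and 4 positive. Car3 and Retn reached the floor in wild type but not in knockout atria. In ventricles Car3 went the other way, past 1.5-fold higher at 6.48 in knockout and 5.74 in wild type mice. The adipose mean was 5.24 in knockout and 5.79 in wild type atria, and 5.15 in knockout and 5.17 in wild type ventricles. Whether skeletal muscle or fat cells were in the pools was not tested, nor was the part of any cell type in the Cnn1 difference.

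For the remaining marker lists, in atria the median was 0.01 over 11 epicardial markers, where Krt18 passed at 0.60, 0.06 over 10 macrophage markers and −0.08 over 15 cardiomyocyte markers. The 9 atrial cardiomyocyte markers had a median of −0.02, with 0 of them past 1.5-fold. All 7 measured neuron and Schwann cell markers were below the floor on every array. In ventricles the skeletal muscle median was −1.82 over 5 genes, of which 4, among them Myl1, Casq1 and Acta1, were past 1.5-fold lower (0.69% of all genes). All 5 reached the floor in wild type and 3 in knockout ventricles, and over all 14 markers 8 were negative and 6 positive. The atrial cardiomyocyte median there was −0.39 over 6 genes, with Sln past 1.5-fold lower at −0.85. The other ventricular medians were −0.14 for fibroblast, −0.15 for macrophage, 0.01 for endothelial, −0.01 for cardiomyocyte and 0.04 for epicardial markers.

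**Figure D5:**
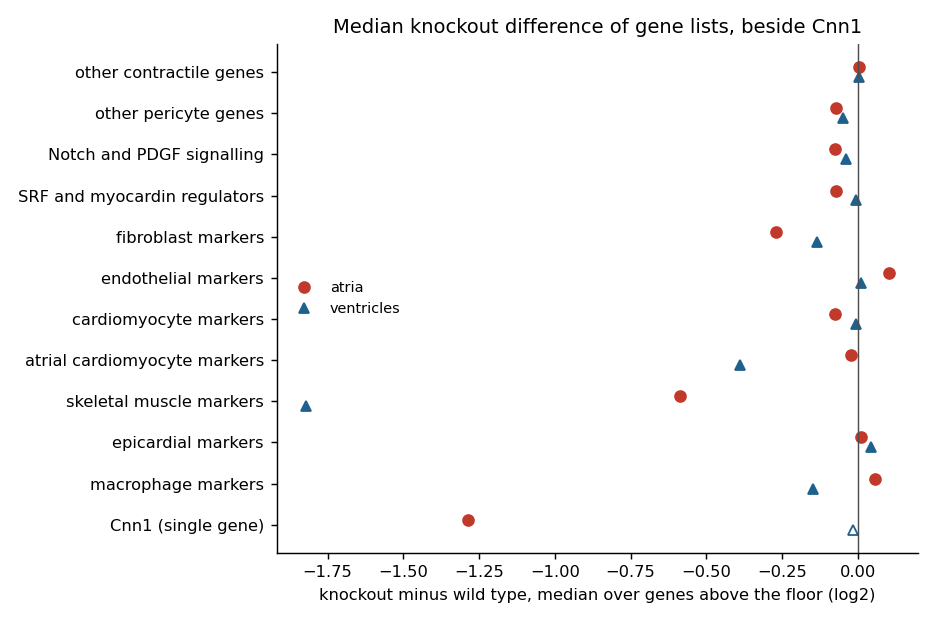
Median knockout minus wild type difference (log2, horizontal axis) of each list with at least 5 genes above the floor in both chambers, in atria (circles) and ventricles (triangles), with Cnn1 as a single gene in the bottom row (open triangle: below the floor). The related lists lie between −0.08 and 0.00, and Cnn1 in atria lies at −1.29.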

How the data were processed

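RNA of atria and ventricles from 7 mice per group was pooled, labelled with biotin and read on 1 array per group. Each deposited value is the log2 intensity of a probe set, made with RMA and the affy package per the submitters' processing notes. RMA subtracts background, evens out the arrays and summarises probes, and it compresses differences near background. The sources used here do not name the versions, the array design or the probe set definitions.

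The table held 21212 probe sets. Per the platform annotation 18786 had 1 symbol, 6 had several and 2420 were not listed. Current symbols came from RefSeq (GRCm38.p6) through the gene number for 18775 and the accession for 4, while 7 stayed as annotated. Where a symbol had several probe sets, the one with the highest mean was used. The floor was the 50th percentile of all values. No test was run, since each group was 1 array. The step that counts genes past a fold was checked on simulated arrays with known differences, which says nothing about the members. List medians are given for at least 5 genes above the floor. Alternatives were median centring, quantile normalization, lowess centring (fraction 0.4, statsmodels 0.14.6), other floors and other folds. Members and lists were chosen with earlier results of these data known.

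All 10 members were named. Other genes were named by rule: up to 4 genes per related list and direction past the fold between genotypes, or the 2 of largest size where none passed, up to 3 per marker list, and the 8 genes nearest to Cnn1. Further genes were named after their values were seen: Pdgfb, Jag1, Heyl, Notch1, Notch4, Hes1, Hey2, Srf, Myocd, Mrtfa, Mrtfb, the neighbours of Cnn1, genes of the chamber and promoter paragraphs, and markers below the floor.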

Additional observations from a re-analysis of the deposited data

How the results depend on the processing

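No paired analysis was possible because each group was 1 array, and for the same reason no array could be left out. Under the 3 other scalings (array medians, quantiles, lowess trend) the count of members past the fold was unchanged in all 4 comparisons. Cnn1 in atria ran from −1.32 to −1.24 and its wild type chamber difference from 2.41 to 2.48. Of the members' differences, 8 changed sign under at least 1 scaling, the largest of them 0.06 in size as deposited. The scalings moved the median of all genes by −0.09 to 0.06. With 1.5-fold in place of 2-fold, 2 members were lower in wild type atria than ventricles (Rgs5 and Notch3) and 1 in the knockout pair (Rgs5). With 4-fold, 0 were lower in the wild type pair and 0 higher in the knockout pair. A floor at the 75th percentile also left 0 higher in the knockout pair, since Cnn1 fell below it there. For all genes, no floor gave 289 higher in knockout than in wild type atria, in place of 103.

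List medians depended on the floor in few cases. The skeletal muscle median was −0.33 in atria and −0.080 in ventricles without a floor, and −2.18 and −2.29 with the higher floor. The atrial cardiomyocyte median in ventricles was −0.24 without a floor. All were negative as in the main setting. The small medians of the contractile and pericyte lists changed sign under some settings, among them the wider pericyte list in atria at 0.03 without a floor and the wider contractile list in atria at −0.03 under median centring. Depth is not a limit of arrays in the way of reads, but Lmod1 and the ventricular Cnn1 values lay below the floor, which limits what they can show.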
